A study of Mus musculus with 7 samples.

Results

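Vitamin A handling in the liver was examined through 9 genes, chosen as the rows of the count table whose mouse symbol was Lrat, Rbp4, Adh1, Adh4, Aldh1a1, Aldh1a2, Cyp26a1, Dhrs3 or Rarb. All 9 were present among the 37620 rows and all 9 passed the filter on low counts, which left 15249 genes. The RNA came from flash-frozen liver of the mouse strain C57BL/6 after 30 weeks of Western diet, and the series title calls the high bile acids of some of these mice spontaneous. By the labels, total bile acids were high in 4 libraries (H-TBA) and low in 3 (L-TBA). Both groups had the same strain, diet and duration, so the bile acid class is the difference the labels name. Age is not in the labels used here, and nor is a statement that libraries are separate mice, so the p-values below speak only of the spread among libraries, which may be technical.

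The liver holds most of the vitamin A of the body, and the work is divided between cell types. Hepatocytes take up dietary retinyl esters and release retinol to the blood bound to retinol-binding protein, while stellate cells re-esterify retinol and keep it in lipid droplets. Retinol is oxidised to retinal and then, irreversibly, to retinoic acid, a ligand of nuclear receptors that switches on genes including those that degrade it. By this textbook division, Rbp4, Adh1, Adh4, Aldh1a1 and Cyp26a1 were treated as hepatocyte genes and Lrat, Dhrs3, Aldh1a2 and Rarb as stellate genes. Dhrs3, Aldh1a2 and Rarb are also known from other cells, among them mesothelium for Aldh1a2. In whole liver, fewer cells of a type and less RNA per cell cannot be told apart.

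Library totals ran from 9996990 to 12152613 counts. On the first principal component of all tested genes (64.7% of the variance) H-TBA 1 lay between the L-TBA libraries and the other H-TBA libraries, and values without it are given where they change the call of one of the 9 genes. Alb, the defining transcript of hepatocytes, stood at 35078 to 45911 CPM (counts scaled to a common library size, with TMM factors). Of 15 hepatocyte markers 3 rose and 3 fell, of 14 periportal markers 11 rose and 1 fell, and of 12 bile duct markers 12 rose. Of 11 endothelial markers 1 rose and 4 fell, and of 13 macrophage and leukocyte markers 0 rose and 3 fell.

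Adh1, Adh4 and Aldh1a1, which oxidise retinol and retinal in hepatocytes, were lower in H-TBA livers, and Cyp26a1, which degrades retinoic acid, was higher. Aldh1a1 fell to 0.391 of its L-TBA level, Adh1 to 0.621 and Adh4 to 0.68, while Cyp26a1 rose 2.32-fold. Among the stellate genes Aldh1a2 rose 8.58-fold, Rarb 1.43-fold and Dhrs3 by 0.24 on the log2 scale, and Lrat, the enzyme of vitamin A storage, was lower without passing the test. Of the 5 genes treated as hepatocyte genes 3 fell and 1 rose, and of the 4 treated as stellate genes 3 rose and 0 fell. These labels follow the textbook division, and the cell of origin was not tested here. In all, 7 of the 9 passed an adjusted p of 0.05 in edgeR's quasi-likelihood test, against 23.9% of all tested genes (13.1% higher, 10.7% lower). Of the 4 that rose, 2 (Aldh1a2 and Cyp26a1) were still called when L-TBA 1, L-TBA 2 or L-TBA 3 was left out, and the number that fell was 5 when H-TBA 1 was left out. Of the 9 genes, 3 (Aldh1a1, Aldh1a2 and Cyp26a1) were called with a change of at least 2-fold, against 8.5% of all tested genes, and 2 of these were higher, against 6.57%. The groups did not overlap for 7 of the 9 genes (33.5% of all tested genes), with H-TBA above for 4 (17.2%) and L-TBA above for 3 (16.3%). The 9 genes were chosen with earlier results of these data known. Their counts beside the shares of all genes are therefore a description and carry no test.

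**Figure D1:**
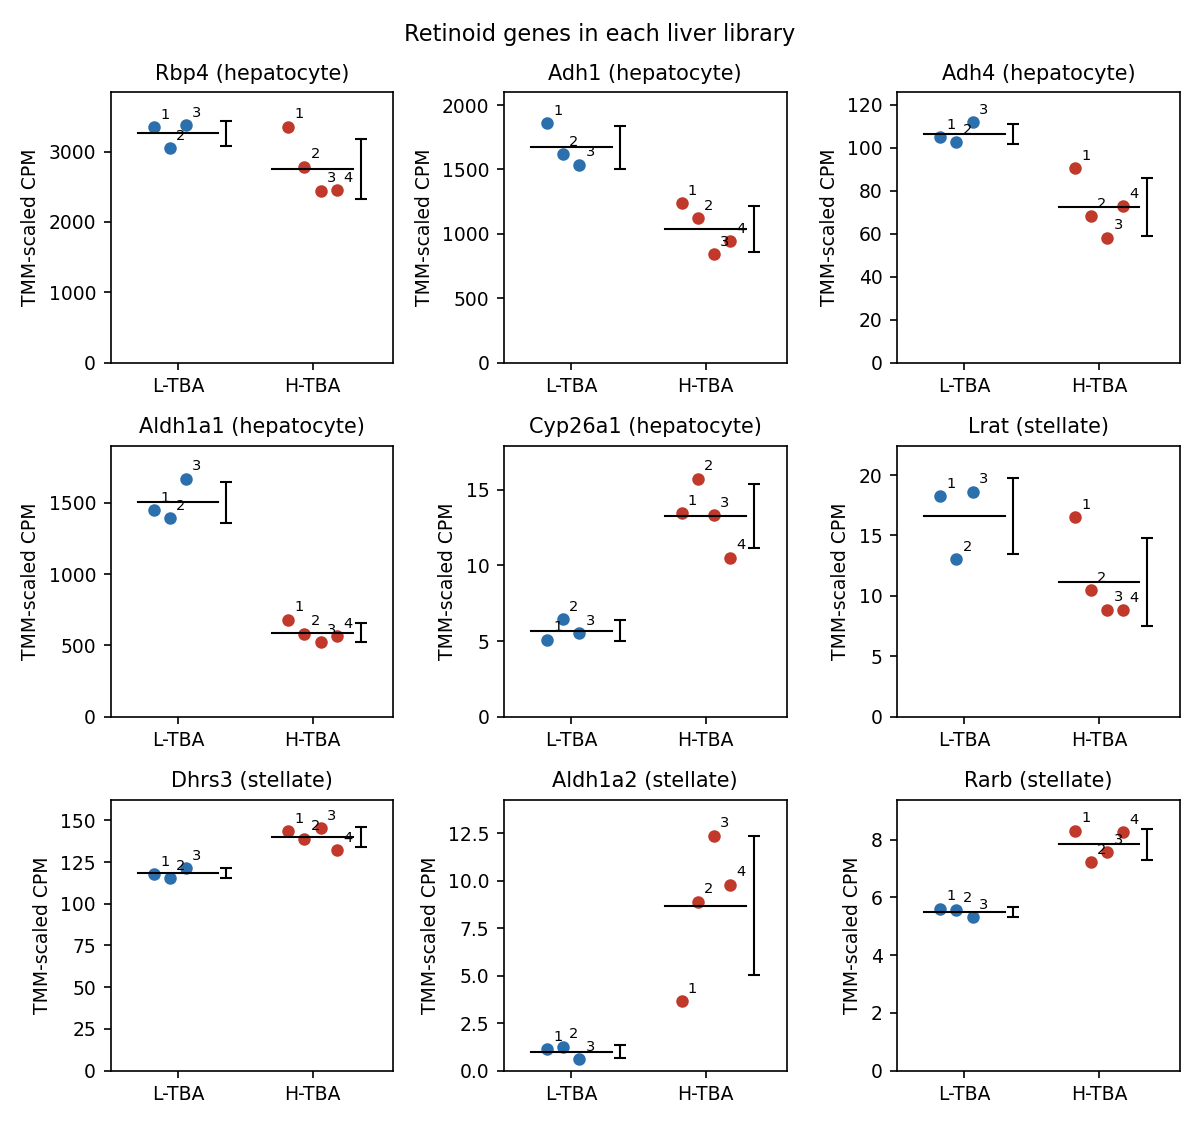
TMM-scaled CPM of the 9 retinoid genes (vertical axes, each from 0) in the 3 L-TBA (blue) and 4 H-TBA (red) libraries, with replicate numbers, the mean as a line and the SD as a bar. Aldh1a1 lies between 524 and 679 CPM in H-TBA, below every L-TBA library, and Aldh1a2 between 3.64 and 12.4 CPM, above every L-TBA library, while Rbp4 and Lrat overlap because H-TBA 1 sits among the L-TBA values.

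Transport. Rbp4 (ENSMUSG00000024990) encodes the retinol-binding protein that carries retinol from the liver to other tissues. It stood at 3351, 3049 and 3379 CPM in L-TBA 1 to 3 and at 3355, 2786, 2446 and 2451 CPM in H-TBA 1 to 4. H-TBA 1 was level with the L-TBA libraries and the other H-TBA libraries lay below all of them. The means of 3260 ± 183 (SD, n = 3) and 2759 ± 428 CPM (SD, n = 4) gave a log2 fold change of -0.24 ± 0.13 (SE), which did not pass (edgeR adjusted p = 0.216). With H-TBA 1 left out it passed, at -0.35 (adjusted p = 0.0279). Ttr, transthyretin, which holds the RBP4 protein in the blood, fell from 3569 ± 190.1 to 2618 ± 171 CPM (-0.45 ± 0.11 on the log2 scale, adjusted p = 0.0113). With L-TBA 1 left out Ttr was not called (adjusted p = 0.0605). Stra6l, a receptor for RBP4 in liver, had a log2 fold change of -0.26 ± 0.09 that missed the threshold (adjusted p = 0.0576) and met it in DESeq2 (0.0342) and with L-TBA 1 left out (0.0382).

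Storage. Lrat (ENSMUSG00000028003), lecithin retinol acyltransferase, makes the retinyl esters that fill stellate cell droplets. It had 211, 145 and 186 counts in L-TBA 1 to 3 and 177, 107, 109 and 109 counts in H-TBA 1 to 4, or 18.2, 13.0 and 18.6 CPM against 16.5, 10.5, 8.86 and 8.82 CPM. H-TBA 1 lay above L-TBA 2, and the other H-TBA libraries lay below every L-TBA library. The log2 fold change was -0.58 ± 0.22 (SE; 95% interval -1.06 to -0.10 before adjustment), and it did not pass over all genes (adjusted p = 0.0769, range 0.00237 to 0.209 over the alternatives). With H-TBA 1 left out it passed at -0.83 (adjusted p = 0.00237), and it passed as well with limma-voom combined with sample quality weights and with no filter (adjusted p = 0.0136 and 0.0372).

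Other markers of quiescent stellate cells moved in both directions around Lrat. Of 21 tested markers 8 rose and 4 fell, with a median log2 fold change of 0.02 against 0.00 over all tested genes. With L-TBA 2 left out the number that rose was 5. Those that fell included Reln, a secreted glycoprotein of stellate cells, which went from 57.6 ± 16.5 to 29.9 ± 3.79 CPM (-0.95 ± 0.17, adjusted p = 0.0029). The collectin gene Colec10 fell from 9.89 ± 3.05 to 0.505 ± 0.42 CPM (-4.26 ± 0.41) and Angptl6 from 6.53 ± 2.77 to 1.77 ± 0.464 CPM (-1.86 ± 0.31). Ecm1 fell by 0.60 ± 0.16 on the log2 scale (adjusted p = 0.0218), with overlapping groups, and was not called when H-TBA 2, H-TBA 4, L-TBA 1 or L-TBA 3 was left out or when libraries were scaled by their totals (adjusted p between 0.0573 and 0.0969). Cygb, cytoglobin, rose from 38.2 ± 6.09 to 63.0 ± 8.10 CPM (0.72 ± 0.13). None of these markers was at 0 in all libraries, and the summed level of the list was 383 to 578 CPM in L-TBA and 543 to 584 CPM in H-TBA.

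The level of Lrat relative to a stellate marker depended on which marker was used. Per kilobase of exon, Lrat over Reln was 1.31 ± 0.156 in L-TBA and 1.65 ± 0.405 in H-TBA, and Lrat over Ecm1 was 0.0950 ± 0.0130 and 0.0935 ± 0.0262. Both ratios overlapped between the groups. Lrat over Pdgfrb, a receptor of stellate cells and fibroblasts chosen here after its values were seen, was 0.435 to 0.637 in L-TBA and 0.169 to 0.323 in H-TBA, without overlap. Pdgfrb itself rose by 0.61 ± 0.13 on the log2 scale (adjusted p = 0.00592), whereas Reln and Ecm1 fell, so each ratio also carries the change of its marker. Of 12 tested markers of activated stellate cells 0 rose and 0 fell by edgeR, with 0 higher and 3 lower at an unadjusted p under 0.05, and DESeq2 and limma-voom each called 1 lower. Acta2, the smooth muscle actin of activated cells, was at 0.55 ± 0.57 (adjusted p = 0.532), a value whose sign turned when H-TBA 1 was left out and in limma-voom with sample quality weights. What share the number of stellate cells had in the Lrat values was not tested.

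**Figure D2:**
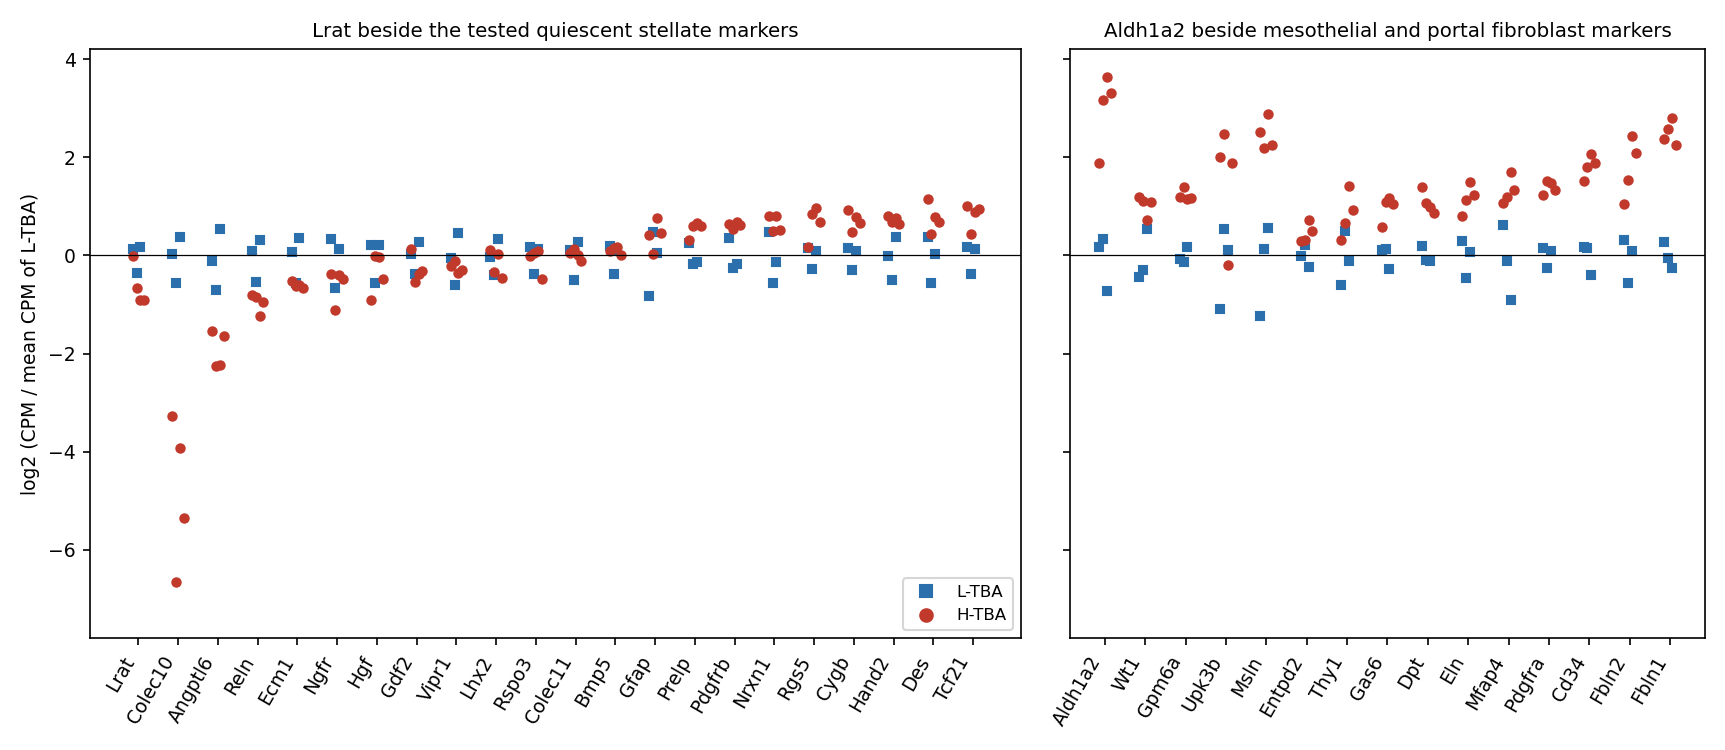
CPM in each library over the mean of the L-TBA libraries (vertical axis, log2 scale; blue squares L-TBA, red circles H-TBA), for Lrat with 21 quiescent stellate markers (left) and Aldh1a2 with 4 mesothelial and 10 portal fibroblast markers (right). Stellate markers spread to both sides of 0, from Colec10 at a log2 fold change of -4.26 upward, whereas 9 of the 10 portal fibroblast markers and 3 of the 4 mesothelial markers rose with Aldh1a2.

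Oxidation of retinol. Adh1 (ENSMUSG00000074207), the main alcohol dehydrogenase of hepatocytes, also oxidises retinol. It was at 1859.7, 1617 and 1537 CPM in L-TBA 1 to 3 and at 1241, 1124, 841 and 942 CPM in H-TBA 1 to 4. Every H-TBA library lay below every L-TBA library, and the log2 fold change was -0.69 ± 0.14 (SE, adjusted p = 0.00513). Adh4 (ENSMUSG00000037797), another retinol-active alcohol dehydrogenase, was at 105, 103 and 112 CPM in L-TBA and at 90.4, 68.2, 58.1 and 72.8 CPM in H-TBA. Its groups did not overlap either, with H-TBA 1 the nearest to L-TBA, and the log2 fold change was -0.56 ± 0.13 (adjusted p = 0.0086). Rdh10, the microsomal retinol dehydrogenase that is limiting for retinoic acid in the embryo, fell from 35.5 ± 1.51 to 25.8 ± 3.19 CPM (-0.47 ± 0.10, adjusted p = 0.00802).

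Dhrs3 (ENSMUSG00000066026) works in the opposite direction, reducing retinal to retinol, and is a known retinoic acid target. It was at 118, 116 and 121 CPM in L-TBA and at 143, 139, 145 and 132 CPM in H-TBA. The groups did not overlap, but the rise was small, with a log2 fold change of 0.24 ± 0.08 (SE, adjusted p = 0.0396). Dhrs3 was no longer called when H-TBA 2, H-TBA 3 or any L-TBA library was left out, or with no filter (adjusted p up to 0.134).

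Synthesis of retinoic acid. Aldh1a1 and Aldh1a2 encode retinal dehydrogenases, and they moved in opposite directions. Aldh1a1 (ENSMUSG00000053279), abundant in hepatocytes, was at 1447, 1393 and 1668 CPM in L-TBA 1 to 3 and at 679, 582, 524 and 567 CPM in H-TBA 1 to 4. The groups lay far apart for their spread, and the log2 fold change was -1.35 ± 0.12 (SE, adjusted p = 8.95e-05). Aldh1a1 over Alb, per kilobase, was 0.0174 ± 0.000130 in L-TBA and 0.00750 ± 0.000461 in H-TBA. Its neighbour in sequence Aldh1a7 fell by 0.54 ± 0.14 on the log2 scale (adjusted p = 0.0162), which did not hold when H-TBA 4 or L-TBA 3 was left out (adjusted p = 0.0558 and 0.0704). Of the runs of 50 bases in Aldh1a1 transcripts 3.06% also occur in another gene, Aldh1a7, so a small part of the counts could be shared.

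Aldh1a2 (ENSMUSG00000013584) is known from the embryo, from mesothelium and from mesenchymal cells. It had 13, 14 and 6 counts in L-TBA 1 to 3 and 39, 91, 152 and 121 counts in H-TBA 1 to 4, or 1.12, 1.26 and 0.601 CPM against 3.64, 8.89, 12.4 and 9.79 CPM. Every H-TBA library lay above every L-TBA library, and H-TBA 1 was the lowest of its group. The log2 fold change was 3.10 ± 0.43 (SE, 95% interval 2.16 to 4.05, adjusted p = 0.000681), and 0.321% of all tested genes were called with a rise of at least 8-fold. With H-TBA 1 left out the value was 3.35. Per kilobase, Aldh1a2 made up 0.148% ± 0.0615 of the summed Aldh1a1, Aldh1a2 and Aldh1a3 level in L-TBA and 3.22% ± 1.55 in H-TBA. Among these genes Aldh1a1 remained the main transcript in both groups. Aldh1a7, left out of that sum, was at 136 ± 15.3 CPM per kilobase in L-TBA and 93.2 ± 17.4 in H-TBA. The values for Aldh1a1 were 304 ± 29.5 and 119 ± 13.3.

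Marker lists of other cell types differed in how they moved beside Aldh1a2. The quiescent stellate markers went both ways (8 higher, 4 lower), the activated ones were not called, and the bile duct markers rose in 12 of 12. Of 4 tested mesothelial markers 3 rose, and the summed level of the list was 7.69 to 11.1 CPM in L-TBA and 20.1 to 25.4 CPM in H-TBA. Msln, mesothelin, rose from 0.407 ± 0.217 to 2.29 ± 0.525 CPM (2.49 ± 0.40, adjusted p = 0.0013), Gpm6a from 5.78 ± 0.645 to 13.5 ± 1.09 CPM (1.23 ± 0.14) and the transcription factor gene Wt1 from 2.21 ± 0.862 to 4.55 ± 0.61 CPM (1.05 ± 0.26). Msln had only 2, 5 and 6 counts in L-TBA 1 to 3 and 19 to 37 in H-TBA, so counting error limits the precision of its fold change. Wt1 was not called when L-TBA 1 or L-TBA 2 was left out (adjusted p = 0.0634 and 0.0571). Of 10 tested portal fibroblast markers 9 rose and 0 fell (0 lower at an unadjusted p under 0.05, and 0 in DESeq2 or limma-voom), with summed levels of 226 to 292 CPM in L-TBA and 459 to 640.5 CPM in H-TBA. Among them were Fbln1, a matrix protein gene (2.50 ± 0.20), Cd34 (1.82 ± 0.17) and Pdgfra (1.40 ± 0.12). H-TBA 1, in which Aldh1a2 was lowest within H-TBA, also had the lowest summed levels of portal fibroblast markers (459 CPM, against 572 to 640.5 in the others) and of bile duct markers (1097 CPM, against 1765 to 2097), while its mesothelial sum of 23.0 CPM was within the range of the others. The largest part of the portal fibroblast sum came from Gas6 (276 CPM in H-TBA 1, against 380 to 415 in the other H-TBA libraries). Most other tested markers of that list were also lowest in H-TBA 1 within H-TBA. Dpt went the other way and was highest there (63.4 CPM, against 43.8 to 49.9). The part of mesothelial, fibroblast or bile duct content in the rise of Aldh1a2 was not tested.

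Breakdown and reception of retinoic acid. Cyp26a1 (ENSMUSG00000024987) encodes the cytochrome P450 that clears retinoic acid, and Rarb (ENSMUSG00000017491) a nuclear receptor for it. Both are classical retinoic acid targets, switched on through direct repeats of a receptor-binding hexamer near their start sites. The promoter windows of RefSeq (GRCm38.p6, 250 bases before to 50 after a start site) were searched for the hexamer AGGTCA or its variant AGTTCA or its variant GGGTCA or its variant GGTTCA followed by another of these in the same orientation, on both strands, with 5 bases between them. All 9 genes had at least 1 window, and only Cyp26a1 and Rarb held such a repeat, against 0.115% of 27025 genes (0.0974% of 32851 windows). With 1 or 2 bases between the hexamers no window of the 9 genes held a repeat, against 0.222% and 0.268% of windows. The sequences are shown because they are the sites through which both genes are known to respond to retinoic acid. Finding these known sites was therefore no test. The first pair of lines gives each repeat as read on the strand that carries it, hexamers in capitals; the second pair gives the flanking sequence on the strand of the gene, 5′ to 3′, with the whole repeat in capitals.
Cyp26a1 repeat: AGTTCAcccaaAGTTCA
Rarb repeat: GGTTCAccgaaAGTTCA
Cyp26a1 chr19:37697608-37697797 (+): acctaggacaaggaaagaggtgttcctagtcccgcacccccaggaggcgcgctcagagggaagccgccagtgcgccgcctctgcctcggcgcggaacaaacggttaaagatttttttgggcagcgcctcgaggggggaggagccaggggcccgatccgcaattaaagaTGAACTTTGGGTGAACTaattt
Rarb chr14:16575507-16575535 (-): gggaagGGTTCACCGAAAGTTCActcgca

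In Cyp26a1 the repeat lay 32 to 16 bases before the RefSeq start, on the strand opposite to the gene, and outside any exon of GENCODE. In Rarb it lay 53 to 37 bases before the RefSeq start, on the strand of the gene. In GENCODE the Rarb site falls, at least in part, within an exon, so only its nearest surroundings are shown. Which gene or strand that exon belongs to was not checked. A match in letters describes the window and does not show that a receptor was bound there in these livers. Among all genes with a window, 31 had this repeat, of which 4 passed the filter on low counts. These were Cyp26a1 and Rarb, Blvrb (biliverdin reductase B), which fell by 0.28 on the log2 scale (adjusted p = 0.0314), and Gm4631, which did not pass, the latter pair being named after their values were seen.

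Cyp26a1 had 59, 72 and 55 counts in L-TBA 1 to 3 and 144, 161, 164 and 130 counts in H-TBA 1 to 4, or 5.10, 6.46 and 5.51 CPM against 13.5, 15.7, 13.3 and 10.5 CPM. Every H-TBA library, H-TBA 1 included, lay well above every L-TBA library. The log2 fold change was 1.22 ± 0.17 (SE, 95% interval 0.85 to 1.58, adjusted p = 0.000665). Per kilobase, Cyp26a1 over Aldh1a1 was 0.00951 ± 0.00178 in L-TBA and 0.0566 ± 0.0104 in H-TBA, with no overlap. Cyp26b1, the related enzyme of other tissues, stood at a log2 difference of 0.16 ± 0.36 (adjusted p = 0.786), whose sign turned when H-TBA 2 was left out.

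Rarb had 65, 62 and 53 counts in L-TBA and 89, 74, 93 and 102 counts in H-TBA, or 5.61, 5.56 and 5.31 CPM against 8.31, 7.23, 7.56 and 8.25 CPM. The groups did not overlap and were tight, and the log2 fold change was 0.51 ± 0.14 (SE, adjusted p = 0.0234). Rarb was no longer called when H-TBA 4 or any L-TBA library was left out (adjusted p between 0.0615 and 0.0763). The Rarb value is uncertain in another respect. In GENCODE gene models 1793 exon bases of Rarb overlap Top2b on the opposite strand, and the strand setting of the counting is not given in the sources used here. Top2b, a DNA topoisomerase gene, stood at 53.4 ± 5.02 CPM in L-TBA and 59.7 ± 6.80 CPM in H-TBA (0.16 ± 0.10, adjusted p = 0.287). Of the other receptors, Rarg rose from 12.6 ± 0.509 to 24.0 ± 6.35 CPM (0.93 ± 0.19, adjusted p = 0.00562), with H-TBA 1 at 15.1 CPM the lowest of its group. Rara and Rxra had log2 fold changes of -0.13 ± 0.10 and -0.19 ± 0.10 (adjusted p = 0.399 and 0.183), neither called, and the sign of Rara turned when libraries were scaled by their totals.

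The hepatocyte genes that fell can be set beside the zones of the lobule. Of 14 tested pericentral markers 9 fell and 0 rose (0 higher at an unadjusted p under 0.05, and 0 in DESeq2 or limma-voom), with a median log2 fold change of -0.81, and their summed level was 11690 to 12724 CPM in L-TBA and 4660 to 7579 CPM in H-TBA. Glul, which encodes glutamine synthetase in the cells around the central vein, went from 1622 ± 109 to 419.9 ± 158 CPM (-1.95 ± 0.23), Cyp2e1 from 7354 ± 623 to 3413 ± 785 CPM (-1.11 ± 0.17) and Nr1i3 from 255 ± 30.7 to 105 ± 19.1 CPM (-1.28 ± 0.14). Within H-TBA, Adh1, Adh4 and Aldh1a1 were highest in H-TBA 1, as were Glul (640.4 CPM) and the summed pericentral (7579 CPM), periportal (11938 CPM) and general hepatocyte markers (85629 CPM). The part of pericentral or hepatocyte content in the lower retinoid enzymes was not tested.

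Levels of the 9 genes can be ordered per kilobase of exon. In L-TBA the order in CPM per kilobase was Rbp4 (2427 ± 136), Adh1 (748 ± 75.2), Aldh1a1 (304 ± 29.5), Adh4 (73.4 ± 3.34), Dhrs3 (40.4 ± 0.997), Lrat (3.11 ± 0.586), Cyp26a1 (2.87 ± 0.353), Rarb (1.04 ± 0.0311) and Aldh1a2 (0.439 ± 0.153). Of neighbours in that order, Lrat and Cyp26a1 did not differ beyond their SD. In H-TBA the first 5 places were the same, with Adh4 (49.9 ± 9.30) and Dhrs3 (47.8 ± 2.003) within their SD. Below them Cyp26a1 (6.69 ± 1.08) and Aldh1a2 (3.83 ± 1.62) stood above Lrat (2.09 ± 0.683) and Rarb (1.49 ± 0.101), and the SD of Lrat overlapped those of Aldh1a2 and Rarb. Aldh1a2 was thus the lowest of the 9 in L-TBA and above Lrat and Rarb by its mean in H-TBA.

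Of 75 further genes of retinoid metabolism 74 were in the table and 61 passed the filter on low counts. Of these 8 rose and 15 fell, which is 23 of 61, against 23.9% of all tested genes called. Their median log2 fold change was -0.19. These genes too were listed with earlier results known, so the counts carry no test. With libraries scaled by their totals the split was 13 higher and 11 lower. The number that rose was 5 when L-TBA 2 or L-TBA 3 was left out, and the number that fell was 9 when L-TBA 3 was left out. Of 19 tested enzymes that form or interconvert retinol and retinal, 5 fell and 1 rose, the latter being the aldo-keto reductase gene Akr1b8, chosen after its value was seen (log2 fold change 0.88, adjusted p = 0.0368). Bco1, which cleaves beta-carotene to retinal, fell from 6.64 ± 0.579 to 3.14 ± 0.544 CPM (adjusted p = 0.0021). Rdh9 and Rdh16, retinol dehydrogenases of a gene cluster with shared sequence, fell by 0.60 and 0.45 on the log2 scale. Of the 50-base runs of Rdh9 68.3% occur in another gene, so its value is uncertain.

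Of the remaining retinoid lists, all but that of retinoic acid synthesis and breakdown had called genes in both directions. Of 6 tested transport genes 1 rose and 2 fell, the latter being Ttr (given above) and Cd36, a fatty acid and carotenoid carrier, which was at -0.87 ± 0.12. Of 10 genes of ester synthesis and hydrolysis 3 rose and 3 fell. Lpl, lipoprotein lipase, which frees retinol from chylomicrons, rose by 0.67 ± 0.09, and Dgat1, an alternative retinol esterifying enzyme, rose by 0.37 ± 0.09, which did not hold when L-TBA 2 or L-TBA 3 was left out (adjusted p = 0.0518 and 0.0513). The esterase Ces1f fell from 262 ± 54.4 to 124 ± 37.4 CPM (adjusted p = 0.0034), and the lipase Lipc fell by 0.58 ± 0.12. Of 8 genes of retinoic acid synthesis and breakdown 0 rose and 2 fell, among them Cyp2c39, a P450 with retinoic acid hydroxylase activity, at -1.27 ± 0.28 (adjusted p = 0.00791). Of the 50-base runs of Cyp2c39 12.05% occur in other genes, so a part of its counts could be shared. Of 12 receptors and cofactors 2 rose and 1 fell, with Ppard rising by 0.67 ± 0.16 and Rxrg falling by 0.70 ± 0.23 (adjusted p = 0.0497), a call that held, among single libraries left out, only for H-TBA 1. Of 9 other genes known to respond to retinoic acid 2 rose and 2 fell. Among them Pck1, of gluconeogenesis, rose by 1.36 ± 0.18, while Rai14 and Rarres1 fell by 0.32 and 0.51 and were each not called for 5 of the 7 single libraries left out. Pck1 is also among the 14 periportal markers, of which 11 rose.

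**Figure D3:**
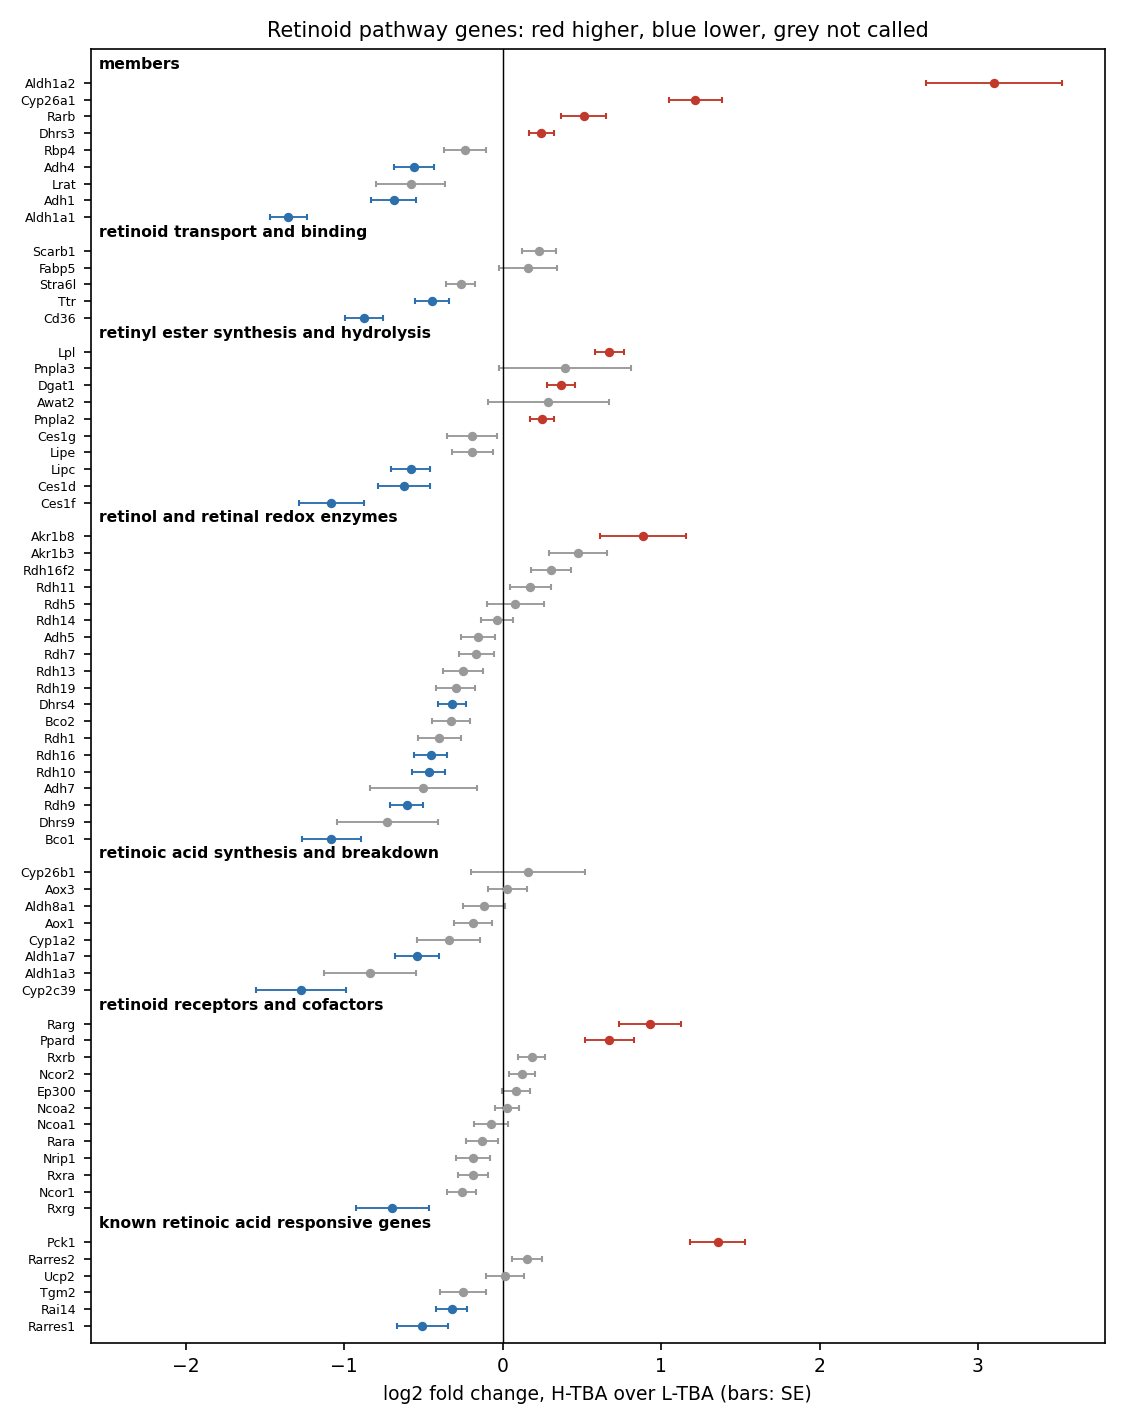
Log2 fold change of H-TBA over L-TBA (horizontal axis, bars are SE) for the 9 genes and, below them, the further retinoid genes tested and reported here, each drawn once; red passed as higher, blue as lower and grey did not pass. Aldh1a2 at 3.10 and Cyp26a1 at 1.22 are on the right, and Aldh1a1 at -1.35 and Cyp2c39 at -1.27 on the left.

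The genes whose pattern over the 7 libraries was most like that of Lrat, among 13252 tested genes whose mean log2 CPM was 1 or more, were Apol7a, Homer2, Cox6c2, Rida and Pafah2, with Pearson r from 0.982 to 0.988 on log2 CPM. None of these is among the stellate markers listed. With so few markers among 13252 candidates, that says nothing about the cell of origin. Of the genes named for Lrat only Apol7a passed the test (log2 fold change -0.55, adjusted p = 0.0289). Among single libraries left out its call held only for H-TBA 1 and L-TBA 2, and it was lost with a replicate block (0.0777). With H-TBA 1 left out Homer2, Cox6c2 and Rida also passed (adjusted p = 0.0042, 0.0045 and 0.020), and with limma-voom and sample quality weights Homer2 and Cox6c2 did (0.022 and 0.023). For Cyp26a1 they were Atg2a, Prpf6, Pros1, Igfbp2 and Abcc4, with r from 0.980 to 0.991. Igfbp2, an insulin-like growth factor binding protein gene, rose by 1.51 and Abcc4, a bile acid exporter of the hepatocyte, by 1.28. These correlations describe libraries that share their group differences and carry no test.

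**Figure D4:**
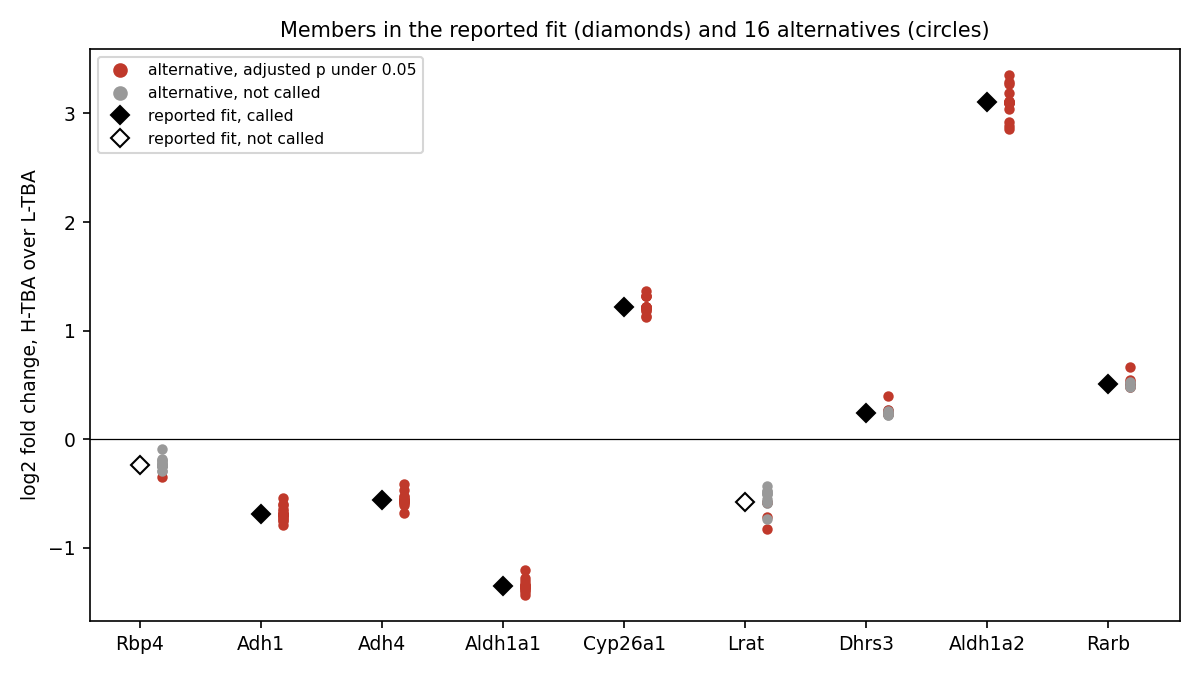
Log2 fold change of H-TBA over L-TBA (vertical axis) for each of the 9 genes in the reported fit (diamonds, filled where called) and in 16 alternatives (circles, red where the adjusted p is under 0.05 and grey where not). The values keep their sign throughout; those of Adh1, Adh4, Aldh1a1, Cyp26a1 and Aldh1a2 stay called, and those of Rbp4, Lrat, Dhrs3 and Rarb do not all lie on the same side of the threshold.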

How the data were processed

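The authors deposited bulk liver RNA sequencing as raw counts per Ensembl gene. Build mm9 and the tools TopHat2 2.0.11, CASAVA and DESeq2 1.18.1 are listed, without roles, per the submitters' processing notes. Which tool counted reads, with which strand setting and gene models, is not given in the sources used here. Symbols came from a GENCODE table (32897 of 37620 identifiers). The GENCODE and RefSeq models used for names, exon lengths and promoter windows are of GRCm38, so no coordinates were joined to the counts. Genes were kept with filterByExpr (minimum count 10, minimum total 15), scaled by TMM and tested, H-TBA against L-TBA with group as the only term, with edgeR 4.0.16 (glmQLFit and glmQLFTest, R 4.3.3) and Benjamini-Hochberg adjustment over the 15249 tested genes at 0.05. Unless another tool is named, adjusted p-values are from that test. Levels are mean ± SD (L-TBA n = 3, H-TBA n = 4); SE was derived from the fold change and its F statistic. The 9 members and the gene lists were chosen with earlier results of these data known. Named list genes were the 4 with the smallest adjusted p per list, among called genes whose mean log2 CPM was 0 or more, and 12 fixed genes, 1 of which is not reported here; of some lists, fewer are named. In simulated counts for 15046 genes, with 200 changed, 82.8% of 2-fold and 95.9% of 4-fold changes were recovered. Of the simulated calls 7.85% were unchanged genes, which is above the 0.05 threshold. The simulation had far fewer changed genes than the 3638 called here, and none changed by less than 2-fold. Its rates therefore do not carry over directly to these data. Libraries of a group differed beyond sampling noise (smallest chi-square per degree of freedom 5.29). Alternatives were limma-voom (limma 3.58.1, always run with sample quality weights), DESeq2 1.42.0, other scalings and filters, a robust fit, a replicate block and leaving out each library. Figures used matplotlib 3.10.9.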

Additional observations from a re-analysis of the deposited data

How the results depend on the processing

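Fold changes of the 9 genes kept their sign under all 16 alternatives. Adh1, Adh4, Aldh1a1, Cyp26a1 and Aldh1a2 stayed called in each of them; the changes for Rbp4, Lrat, Dhrs3 and Rarb stand beside their values, and the replicate block in addition lost Dhrs3 and Rarb (adjusted p = 0.125 and 0.123). Leaving out each library in turn gave 2 to 4 members higher and 3 to 5 lower, 5 to 9 further retinoid genes higher and 9 to 19 lower, 5 to 8 quiescent stellate markers higher, and over all genes 1470.0 to 2429 higher and 1035 to 2123 lower, the lowest count of lower genes being without L-TBA replicate 1. Library totals moved the median log2 fold change of all genes from 0.00 to 0.16 and gave 3117 higher and 832 lower genes, in place of 2003 and 1635, and 13 further retinoid genes higher. With an adjusted p of 0.01, an alternative chosen after seeing the data, 2 members were higher and 3 lower. Leaving out further retinoid genes that share at least 5% of their 50-base runs with another gene, also chosen after seeing the data, gave 8 higher and 11 lower. The sign turned for Acta2 with limma-voom and sample quality weights (-0.16) and without H-TBA replicate 1 (range over left-out libraries -0.40 to 0.93), for Cyp26b1 without H-TBA replicate 2 (range -0.20 to 0.49), for Rara with library totals (0.025) and for Pafah2 with library totals (0.0019); for the left-out libraries the cause was not tested.

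Replicate numbers did not pair the libraries: same-numbered libraries had correlations of -0.10, -0.06 and -0.06 between their deviations from the group means, and none was the best match of its own number. The replicate block gave 1166 higher and 754 lower genes, 2 members higher and 7 further retinoid genes lower. It also lost the calls of Ttr, Rdh10, Rdh16, Aldh1a7, Rxrg, Rarres1, Apol7a, Ecm1 and Wt1. With 6 to 14 counts of Aldh1a2 and 53 to 72 counts of Rarb and Cyp26a1 per L-TBA library, counting error limits the precision of those levels.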
